A study of Mus musculus with 2 samples.

Results

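Solute carriers are membrane proteins that move sugars, amino acids, ions, metals, nucleotides and other small molecules across membranes, and their genes are named Slc, a subfamily number, the letter a (or another letter) and a member number. Members were chosen by their measured signal: Slc genes with a probe set of 1 listed symbol that reached the array's median over all probe sets on at least 1 of the 2 arrays. The genes Slc7a2, Slc7a11, Slc11a1, Slc18a2, Slc40a1 and the Slco genes were left out, which gave 192 members of the 11314 genes past the same rule. They belonged to 49 subfamilies, which were divided into 9 transport classes by subfamily number, with 2 Slc66 genes in no class. The symbol also takes in 5 genes whose products are not carriers: the scaffold genes Slc9a3r1 and Slc9a3r2, Slc4a1ap, Slc7a6os and the pseudogene Slc2a4rg-ps.

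The cells were macrophages of the mouse colonic lamina propria, sorted as CD45+, IAb+, CD11b+, F4/80+ and CD103-, and the question was how inflammatory macrophages differ from control ones. The control group was 1 array of cells from mice given plain drinking water for 5 days. The DSS group was 1 array of cells from mice whose water held 3% (wt/vol) dextran sulfate sodium, a sulfated polysaccharide that damages the gut epithelium and induces colitis, also for 5 days. Strain, age, and the number of mice behind an array are not in the labels. With 1 array per group there was no replicate check, no test between groups could be run, and each value compares these arrays only.

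Macrophages in inflamed tissue are known to take up more glucose and to release lactate, which needs facilitative glucose carriers (Slc2) and proton-linked monocarboxylate carriers (Slc16) in the plasma membrane. Other carriers sit in lysosomes, Golgi, endoplasmic reticulum and mitochondria, where they pass amino acids, nucleotide sugars, zinc and metabolites between compartments. Many work only with a partner protein: Slc3a2 is the heavy chain of several Slc7 light chains, and basigin (Bsg) and embigin (Emb) carry Slc16 members to the cell surface.

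Values are log2 signals as deposited, a difference is the DSS value minus the control value on that scale, and a fold is the same difference expressed as a ratio. The array medians were 5.65 for control and 5.61 for DSS. These medians are not detection limits, and RMA (robust multi-array average) compresses differences between dim probe sets. The robust SD of the differences over all 11314 genes was 0.39, and the pooled SD between probe sets of 1 gene was 0.28 over 643 genes. These describe the arrays and the probes and stand in for no replicate error. In sorted bulk cells, fewer cells of a type and less RNA per cell cannot be told apart. Of the 5 antigens of the sort, Ptprc, H2-Ab1, Itgam and Adgre1 met the signal rule and lay within 2-fold, and Itgae, which encodes the excluded CD103, was under the median of both arrays. Markers of other cells differed between the arrays beside every result below. Among 16 neutrophil markers that met the signal rule, the DSS array had 13 higher by 2-fold or more, against 3.93% of all genes. The log2 of the list's summed signal went from 11.13 to 15.09. Mpo, Ltf, Ngp, Cxcr2, Ly6g, Lcn2, Stfa3 and Mmp8 met the rule on the DSS array only. The sign of their differences therefore largely follows from the rule. Elane and Padi4 of that list were under the median of both arrays. Among 10 monocyte markers 9 were higher by 2-fold or more, and 1, F13a1, was lower by that size (difference -1.88). Their summed log2 signal was 12.22 in control against 14.33 in DSS. Chil3 of these met the rule on the DSS array only. Among 16 resident intestinal macrophage markers 9 were lower by 2-fold or more (against 3.01% of all genes), with summed signals of 14.62 against 13.38. Vsig4 and Cd209f of these met the rule on the control array only. The part of these cell markers in the differences of the Slc genes was not tested.

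As a family, the Slc genes differed little between the arrays. The higher members past 2-fold were the glucose and lactate carrier genes Slc2a3, Slc2a1, Slc2a6 and Slc16a3, with Slc25a20 and Slc22a15. The lower ones were Slc9a9, Slc5a3, Slc6a8, Slc14a1, Slc46a3, Slc9a3r2, Slc10a6, Slc15a2 and Slc11a2. A size of 2-fold was reached by 6 of 192 members in the higher direction (3.12%, against 3.93% of all 11314 genes) and by 9 in the lower (4.69%, against 3.01%), and 177 lay between. At 1.5-fold the counts were 18 higher, against 9.73% of all genes, and 22 lower, against 8.71%. At 3-fold they were 3 higher, against 1.62%, and 2 lower, against 1.04%. These shares were near those of all genes. The median difference of the members was -0.10, and that of all genes -0.03. Differences above 0 were found in 81 members (42.2%), against 45.9% of all genes, of which 53.5% were below 0. Of the 192 members, 174 reached the median on both arrays, 12 only on the control array and 6 only on the DSS array. Since those 18 passed through the array where they were brighter, the sign of their difference largely follows from the rule. The scatter of both arrays shows most members close to the line of equal signals.

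**Figure D1:**
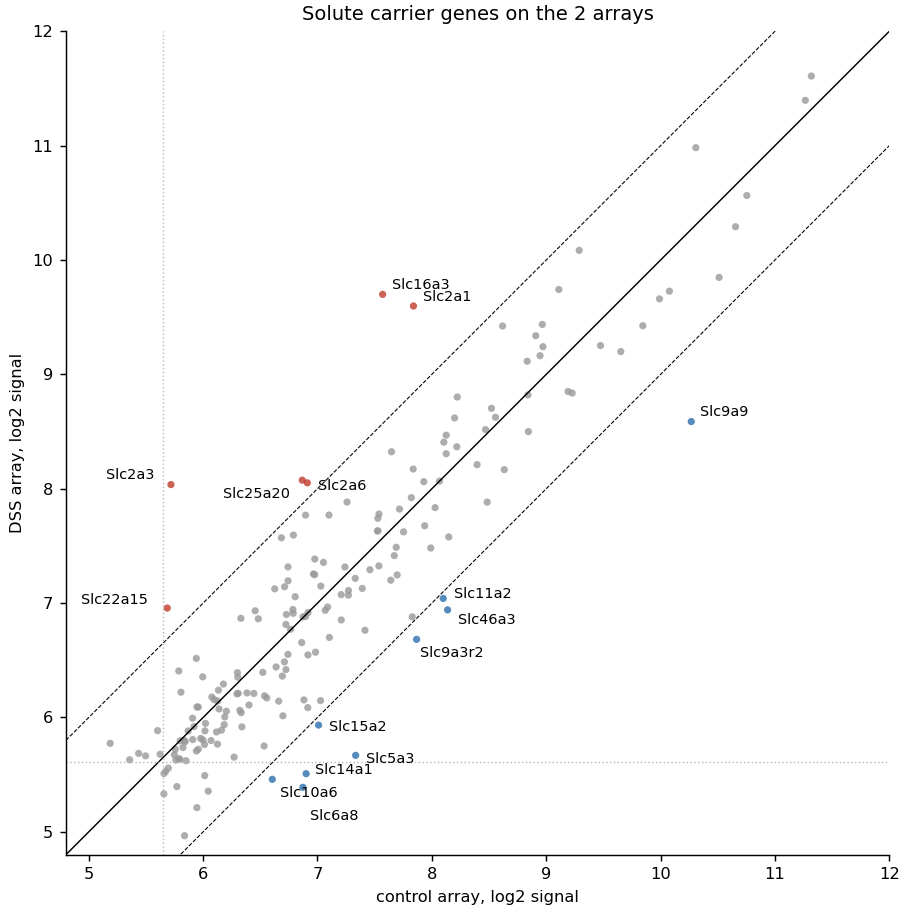
Each point is 1 of the 192 Slc genes, with its log2 signal on the control array (x axis) and on the DSS array (y axis). The solid line marks equal signals, the dashed lines 2-fold, and the dotted lines the array medians of 5.65 and 5.61. The 6 genes past 2-fold in the higher direction are red, the 9 past it in the lower direction are blue, and the other 177 are grey.

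Glucose carriers held 3 of the 6 higher members. Slc2a3 (probe set 10547641), which encodes the glucose carrier GLUT3 of neurons and white blood cells, read 5.72 in control and 8.04 in DSS. Its difference of 2.32 (4.99-fold) was the highest of all members and the 96th highest of the 11314 genes. Its control signal lay just above the control array's median, so the fold starts from a dim signal that cannot be told from background. Slc2a1, which encodes the widely expressed glucose carrier GLUT1, read 7.84 in control and 9.60 in DSS, a difference of 1.76 (3.38-fold). Slc2a6, which encodes a lysosomal sugar carrier of the same family, read 6.91 and 8.05, a difference of 1.14. The other members of the subfamily lay on the lower side: Slc2a8, an intracellular glucose carrier gene, read 6.54 and 6.19, and the pseudogene Slc2a4rg-ps 6.38 and 6.21. The fructose carrier gene Slc2a5 was under the signal rule on both arrays, at 4.48 and 4.28. The Slc2 median of 1.14 over 5 members was 1.18 under median centring and 1.15 under loess centring.

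The lactate exporter gene Slc16a3 had the second highest difference. Slc16a3, which encodes MCT4, read 7.57 in control and 9.70 in DSS, a difference of 2.13 (4.38-fold). None of the other 7 Slc16 members reached 2-fold, and their differences ran from -0.57 to 0.15. Slc16a7, which encodes MCT2, a carrier with high affinity for pyruvate and lactate, read 8.15 in control and 7.58 in DSS. Slc16a10, an aromatic amino acid carrier gene, read 6.79 and 6.91, and Slc16a6 read 8.22 and 8.37. Slc16a1, which encodes MCT1, fell just outside the signal rule at 4.98 and 5.61. The median of the 8 Slc16 members was -0.02, and it turned to 0.02 under median centring and 0.06 under loess centring, so no direction is given for the subfamily.

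The accessory genes of these carriers differed from each other. Emb, which encodes embigin, read 10.22 in control and 11.49 in DSS, a difference of 1.28 (2.42-fold). Bsg, which encodes basigin, the usual partner of MCT4 and MCT1, read 8.84 and 8.70. Mpc1, a subunit of the mitochondrial pyruvate carrier, read 8.14 and 8.83, a difference of 0.69. Slc3a2 read 10.75 and 10.56. In this list of partners and pyruvate carriers, 4 genes met the signal rule, with a median of 0.27. Of these, 1 was higher and 0 were lower by 2-fold or more (against 3.93% and 3.01% of all genes).

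Among 15 regulators of Slc genes that met the signal rule, 1 was higher and 2 were lower by 2-fold or more. Over all genes the shares at that size were 3.93% and 3.01%. The median of the list was -0.18. Hif1a, the oxygen-regulated subunit of hypoxia-inducible factor 1 and a known activator of Slc2a1 and Slc16a3, read 9.94 in control and 11.47 in DSS, a difference of 1.52. Txnip, an arrestin-like protein that promotes removal of GLUT1 from the cell surface, read 11.13 and 9.94, a difference of -1.18. Ddit3, a stress-induced transcription factor, read 10.32 and 8.76, a difference of -1.55. Atf4, the activator of amino acid carrier genes under amino acid shortage, read 9.47 and 9.21. Nfe2l2, which drives the antioxidant genes, read 11.62 and 11.61, and Mtf1, the zinc-sensing factor, read 7.86 and 7.83.

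Promoter sequence was examined because the higher members include known hypoxia-inducible genes. Of the 192 members, 149 matched a RefSeq promoter entry (GRCm38.p6) by gene identifier. The 250 bases before each annotated start were searched on both strands for the hypoxia response core ACGTG, its variant GCGTG with another first letter, and so for the complement of each (CACGT and, for the variant, CACGC). At least 1 match was present in 38.6% of all 32851 promoters in 54.4% of the 11435 promoters of genes that met the signal rule and in 51.9% of the 189 promoters of members. Counted by gene, it was present for 57.0% of the members, 59.8% of 9043 genes past the signal rule and 41.5% of all genes in the table. Among members at least 2-fold higher it was present in 4 of the 5 genes with an entry (Slc16a3, Slc2a1, Slc2a6 and Slc22a15, not Slc25a20), and among those at least 2-fold lower in 2 of 6 (Slc5a3 and Slc15a2). Slc2a3 had no entry. With these numbers of genes the shares are a description, and a match of 5 letters is not a binding site. The windows of the 3 sugar and lactate carrier genes are shown with the matches in capitals, followed by those of the members with the lowest differences, Slc9a9, which had none, and Slc5a3, which had 2. All are 5′ to 3′ on the gene's strand and end at the base before the annotated start.
Slc16a3, chr11:120948817-120949066, plus strand: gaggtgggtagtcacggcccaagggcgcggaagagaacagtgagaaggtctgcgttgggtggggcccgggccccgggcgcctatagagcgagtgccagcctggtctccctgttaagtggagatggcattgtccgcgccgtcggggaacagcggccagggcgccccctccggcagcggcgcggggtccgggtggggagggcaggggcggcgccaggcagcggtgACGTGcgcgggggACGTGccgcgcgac
Slc2a1, chr4:119108495-119108744, plus strand: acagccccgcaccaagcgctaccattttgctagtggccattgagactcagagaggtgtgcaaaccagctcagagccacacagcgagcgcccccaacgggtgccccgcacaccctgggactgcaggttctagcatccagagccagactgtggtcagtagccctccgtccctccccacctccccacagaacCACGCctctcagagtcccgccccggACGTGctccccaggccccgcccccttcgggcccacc
Slc2a6, chr2:27027999-27028248, minus strand: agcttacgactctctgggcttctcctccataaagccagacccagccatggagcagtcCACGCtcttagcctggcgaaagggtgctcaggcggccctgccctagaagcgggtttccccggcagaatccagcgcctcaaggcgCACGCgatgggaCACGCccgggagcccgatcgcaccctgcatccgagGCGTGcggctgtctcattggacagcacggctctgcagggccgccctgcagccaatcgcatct
Slc9a9, chr9:94669642-94669891, plus strand: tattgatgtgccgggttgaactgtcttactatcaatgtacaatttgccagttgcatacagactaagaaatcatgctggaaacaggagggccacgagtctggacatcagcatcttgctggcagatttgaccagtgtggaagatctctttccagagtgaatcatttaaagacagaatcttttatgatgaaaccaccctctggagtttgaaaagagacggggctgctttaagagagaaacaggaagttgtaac
Slc5a3, chr16:92058072-92058321, plus strand: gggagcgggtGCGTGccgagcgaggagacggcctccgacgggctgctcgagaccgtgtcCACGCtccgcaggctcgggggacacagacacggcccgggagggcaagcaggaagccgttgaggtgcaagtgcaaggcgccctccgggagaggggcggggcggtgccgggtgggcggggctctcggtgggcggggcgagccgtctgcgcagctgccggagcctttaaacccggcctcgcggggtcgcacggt
In Slc16a3 both matches are ACGTG, and they begin 27 and 14 bases before the start. In Slc2a1 the matches begin 61 and 36 bases before it. Slc2a6 had 4 matches, beginning 193, 109, 97 and 62 bases before its start. In Slc5a3 they begin 240 and 191 bases before the start, and Slc15a2 had 1, beginning 42 bases before it.

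Other sugar and sodium-coupled carriers lay on both sides. Slc5a3, which takes up the osmolyte myo-inositol with sodium, read 7.33 in control and 5.67 in DSS, a difference of -1.66 (3.17-fold lower). Its DSS signal was just above the DSS array's median, so the fold may not be exact. Slc37a2, a sugar-phosphate exchanger gene of macrophages, read 7.99 and 7.48, and Slc45a4 7.21 and 6.85. Slc50a1, a Golgi sugar carrier gene, read 6.74 and 7.32, and Slc37a3 6.71 and 7.14. The sodium-coupled multivitamin carrier gene Slc5a6 read 6.32 and 6.06. In the class of 15 genes, 3 were higher and 1 was lower by 2-fold or more (against 3.93% and 3.01% of all genes). The class median of -0.04 was 0.00 under median centring and 0.07 under loess centring.

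**Figure D2:**
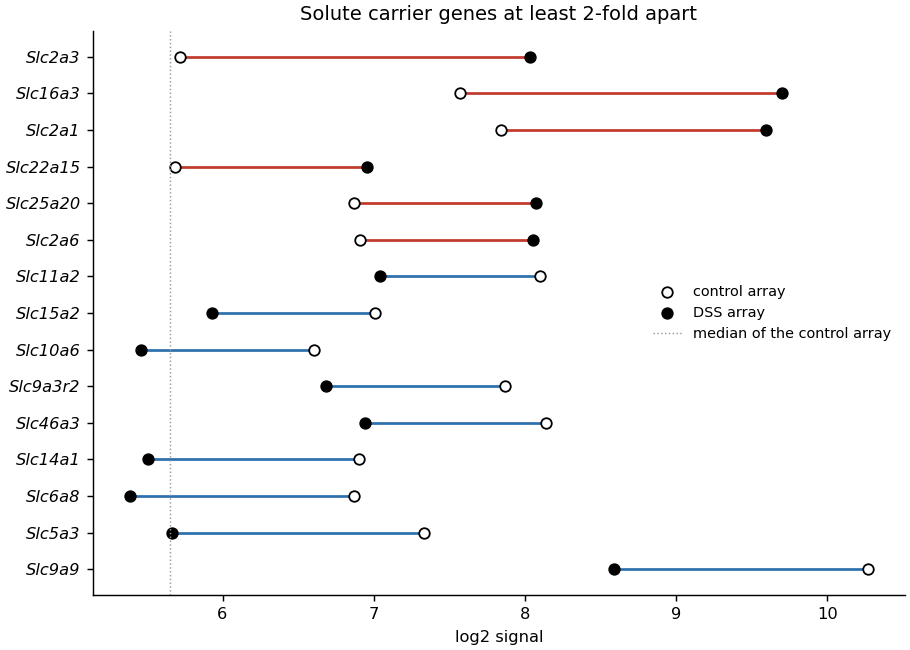
Log2 signal (x axis) of the 15 Slc genes at least 2-fold apart, in order of their difference, with open circles for the control array and filled circles for the DSS array. Red lines join genes higher in DSS and blue lines genes lower, and the dotted line is the control array's median of 5.65. Slc2a3 and Slc22a15 start close to that median, and Slc10a6, Slc14a1 and Slc6a8 end below it.

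Amino acid carriers differed by small amounts. In the amino acid, amine and creatine class of 26 members, 0 were higher and 1 was lower by 2-fold or more. Over all genes the shares at that size were 3.93% and 3.01%. The class median was -0.16 (-0.08 under loess centring). Below 0 lay 17 members of the class (15 under loess centring). Of these, 4 (Slc6a8, Slc7a4, Slc7a13 and Slc38a8) met the signal rule on the control array only, which fixes their sign. Among the 22 members that met it on both arrays, 13 were below 0, against 53.5% of all genes, and the median was -0.11. Slc6a8, the creatine carrier gene, read 6.87 in control and 5.39 in DSS, a difference of -1.48, and its DSS value was below the median of that array, where signal and background cannot be separated. Slc6a6, the taurine carrier gene, read 10.51 and 9.85, a difference of -0.66. All 3 Slc6 members lay below 0 under each scaling, against 53.5% of all genes without centring. The rule fixes the sign of Slc6a8, and Slc6a11 had a difference of only -0.16, so no direction is given for the subfamily.

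The Slc7 subfamily includes light chains that pair with Slc3a2, but not only those, and Slc7a6os encodes no carrier. Of the 9 Slc7 members, 7 were below 0 (6 under loess centring), against 53.5% of all genes, and the median was -0.26. Among those 7, Slc7a4 and Slc7a13 met the signal rule on the control array only. Slc7a8, which encodes the neutral amino acid exchanger LAT2, read 8.48 in control and 7.88 in DSS. Slc7a7 and Slc7a6, which encode the exchangers of basic for neutral amino acids y+LAT1 and y+LAT2, had differences of opposite sign, with Slc7a7 at 9.23 and 8.84 and Slc7a6 at 6.46 and 6.93. The leucine carrier gene Slc7a5 read 7.39 and 7.13, and the arginine carrier gene Slc7a1 read 7.21 and 7.07. Slc7a4 read 5.84 and 4.97, a difference of -0.87 from a signal close to the median. The transcript of Slc7a6os lies beside Slc7a6, and the sources used here do not say whether the probe sets tell them apart. Slc7a6os read 8.52 and 8.70.

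Both Slc7 genes that the rule left out by name, Slc7a11 and Slc7a2, lay above 0. The cystine carrier gene Slc7a11 read 7.48 in control and 10.51 in DSS, a difference of 3.03 that is larger than that of any member. The arginine carrier gene Slc7a2 read 5.22 and 6.58, a difference of 1.36. Slc7a2 met the signal rule on the DSS array only, so its sign largely follows from the rule. Its fold starts from a dim signal that cannot be told from background. Slc40a1, the iron exporter gene, read 7.27 and 6.79, and Slc18a2 was under the signal rule.

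Glutamine carrier genes divided. Slc38a1, a plasma membrane glutamine carrier, read 9.11 in control and 9.74 in DSS, a difference of 0.63, and its other probe set read 7.97 and 9.31, a difference of 1.34 that passes 2-fold. Slc38a2, its stress-inducible relative, read 10.66 and 10.29. Slc38a7, a lysosomal glutamine carrier, read 6.88 and 6.15, a difference of -0.73. Slc38a9, the lysosomal arginine sensor upstream of mTORC1, read 8.97 and 9.24 by the probe set used and had a difference of -0.23 by the other, so it has no direction here. Slc1a5, a further glutamine carrier gene, read 7.52 and 7.63. The amino acid carrier genes Slc36a1 and Slc36a4 had differences of 0.25 and 0.30.

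The genes of amino acid sensing at the lysosome lay within 2-fold. Among 13 such genes that met the signal rule, 0 were 2-fold apart and 9 were below 0 (8 under either centring), against 53.5% of all genes, with a median of -0.14. Sesn1, a leucine sensor of the sestrin family, read 9.30 in control and 8.31 in DSS, a difference of -0.99. The GTPase genes Rragc and Rraga had differences of -0.67 and -0.52. The scaffold gene Lamtor4 had a difference of 0.39, and the second sestrin gene Sesn2 one of 0.44. Sesn2 met the signal rule on the DSS array only (5.49 in control), so its sign largely follows from the rule.

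Ion and pH carriers held the member with the lowest difference. Slc9a9 (probe set 10587854), which encodes the endosomal sodium-proton exchanger NHE9, read 10.27 in control and 8.59 in DSS, a difference of -1.68 (3.21-fold lower), the 98th lowest of the 11314 genes. Both signals were well above the array medians. Slc9a7, which encodes the exchanger NHE7 of the trans-Golgi network, read 6.90 and 7.77, a difference of 0.87, and Slc9a8, a Golgi exchanger, 7.53 and 7.74. Slc9a3r2, a scaffold of the plasma membrane exchanger and no carrier itself, read 7.87 and 6.68, a difference of -1.18, while its relative Slc9a3r1 read 8.20 and 8.62. Slc9a3, the exchanger that these scaffolds bind in epithelium, was under the signal rule at 4.43 and 4.46.

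Chloride, phosphate and calcium carriers lay within 2-fold. Slc12a2, the sodium-potassium-chloride carrier NKCC1 that controls cell volume, read 7.83 in control and 6.88 in DSS, a difference of -0.95 just short of 2-fold. Slc26a11, a sulfate and chloride carrier gene, read 6.53 and 5.75, a difference of -0.78. Slc20a1, the phosphate carrier PiT1, read 9.84 and 9.42. Slc8a1, the plasma membrane sodium-calcium exchanger, read 7.10 and 7.77, a difference of 0.67, which was 0.22 by a dimmer probe set, and Slc4a11 read 5.79 and 6.41. In the class of 28 genes, 0 were higher and 2 were lower by 2-fold or more (against 3.93% and 3.01% of all genes). The class median of -0.07 was 0.00 under loess centring. Of 8 genes for the pumps that set up the sodium and calcium gradients, 0 were 2-fold apart. Atp1b3, a sodium pump subunit, had a difference of 0.58 and Atp2b1, the plasma membrane calcium pump, one of -0.51.

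Metal carriers were led by iron and copper genes. Slc11a2, which encodes DMT1, the carrier that brings ferrous iron out of endosomes, read 8.10 in control and 7.04 in DSS, a difference of -1.06 (2.08-fold lower). Slc31a1, the copper uptake carrier CTR1, read 8.62 and 9.42, a difference of 0.80, and its relative Slc31a2 read 8.83 and 9.11. Slc48a1, a lysosomal haem carrier gene, read 7.10 and 6.70. The mitochondrial iron carriers mitoferrin 2 and mitoferrin 1, Slc25a28 and Slc25a37, had differences of 0.47 and 0.10.

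Zinc carriers of both subfamilies stayed within 2-fold. Slc39 members bring zinc into the cytosol and Slc30 members take it out or into organelles. Of 13 Slc39 members, 11 were below 0 (against 53.5% of all genes), 1 was above it and 1 had equal signals, with a median of -0.20. This count was 8 below 0 under median centring and 9 under loess centring, because several differences lay within 0.02 of 0. Of 7 Slc30 members, 5 were above 0 (against 45.9% of all genes) and 2 below under each scaling, with a median of 0.18. Slc39a8, the zinc carrier ZIP8, read 6.04 in control and 5.36 in DSS, a difference of -0.69 with a DSS signal below the median, and Slc39a10 read 8.84 and 8.50. Slc39a14, the zinc and iron carrier ZIP14, went the other way, with a difference of 0.36. Slc30a9, a mitochondrial zinc carrier gene, read 8.22 and 8.80, and the Golgi zinc carrier genes Slc30a6, Slc30a7 and Slc30a5 had differences of 0.41, 0.34 and 0.18. Slc30a4 lay lowest at 7.70 and 7.25, and the plasma membrane exporter gene Slc30a1 read 8.47 and 8.52. Over the 20 members of both subfamilies, most differences were smaller in size than the SD of 0.28 between probe sets of 1 gene. Most of those named here were larger.

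**Figure D3:**
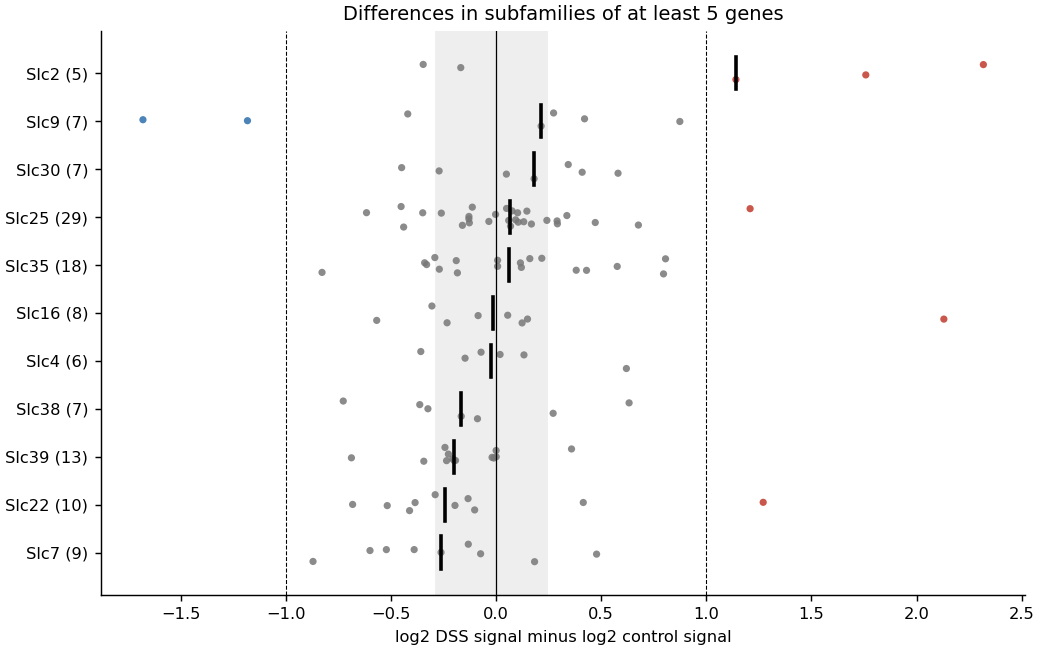
Differences (log2 DSS minus log2 control, x axis) of Slc genes in the 11 subfamilies with at least 5 members, with 1 point per gene and the number of genes in parentheses. Black bars are medians, dashed lines mark 2-fold, and the grey band spans the middle 50% of all 11314 genes, from -0.28 to 0.24. The Slc2 median of 1.14 lies outside the band, and the medians of the other 10 subfamilies lie inside it.

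Mitochondrial carriers, the Slc25 subfamily, were the largest group and centred near 0. In this group of 29 genes, 1 was higher and 0 were lower by 2-fold or more (against 3.93% and 3.01% of all genes). Above 0 lay 17 of them (19 under either centring), against 45.9% of all genes, with a median of 0.07. Slc25a20, which carries acylcarnitines into mitochondria for fatty acid oxidation, read 6.87 in control and 8.07 in DSS, a difference of 1.21 (2.31-fold). Slc25a11, the oxoglutarate-malate carrier, read 7.65 and 8.32, a difference of 0.68. The aspartate-glutamate carrier genes Slc25a12 and Slc25a13, which serve the same malate-aspartate shuttle, had differences of 0.34 and -0.04. Slc25a27 lay lowest at 6.27 and 5.65, followed by the pyrimidine nucleotide carrier gene Slc25a36, at 9.65 and 9.20 by its brighter probe set and with a difference of -0.06 by the other.

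The carriers that feed ATP synthesis differed by small amounts. Slc25a5, the ADP-ATP carrier ANT2, read 11.32 in control and 11.61 in DSS, and its 3 probe sets had differences of 0.29, 0.30 and 0.32. Slc25a4, its paralog ANT1, had a difference of -0.35, and the table does not show whether probes of these close paralogs cross-hybridise. The phosphate carrier gene Slc25a3 read 11.27 and 11.40. The citrate carrier gene Slc25a1 and the dicarboxylate carrier gene Slc25a10 had differences of 0.08 and 0.06.

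Nucleotide sugar carriers supply the Golgi and endoplasmic reticulum with building blocks for glycans. Of 18 Slc35 members, 0 were 2-fold apart and 11 were above 0 under each scaling (against 45.9% of all genes), with a median of 0.06. Slc35b1, which exchanges ATP into the endoplasmic reticulum, read 9.29 in control and 10.08 in DSS, a difference of 0.80, and Slc35b3, a carrier of the sulfate donor PAPS, read 6.79 and 7.60, a difference of 0.81. The other PAPS carrier gene Slc35b2 read 6.76 and 6.77. The GDP-fucose carrier gene Slc35c1 read 5.94 and 6.52, and the CMP-sialic acid carrier gene Slc35a1 6.48 and 6.86. Slc35g1 lay lowest at 6.92 and 6.09, a difference of -0.83. Among nucleoside carriers, Slc29a1, which encodes ENT1, the adenosine carrier of the plasma membrane, read 7.03 and 6.15, a difference of -0.88. Slc29a3, its lysosomal relative, read 7.72 and 7.82, and the sodium-coupled carrier gene Slc28a2 6.63 and 7.12. The acetyl-CoA carrier gene Slc33a1 read 7.05 and 7.36.

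Carriers of organic ions, peptides and bile acids had a class median of -0.25 (-0.21 under median centring and -0.17 under loess centring). In this class of 24 genes, 1 was higher and 3 were lower by 2-fold or more (against 3.93% and 3.01% of all genes). Below 0 lay 19 of them (18 under loess centring), against 53.5% of all genes. Of those 19, 5 genes met the signal rule on the control array only, so the rule fixes their sign. These include Slc14a1 and Slc10a6 of the 3 lower by 2-fold or more. Among the 18 members that met it on both arrays, 1 was higher and 1 was lower by 2-fold or more, and the median was -0.23. Slc22a15, an organic cation carrier gene, read 5.69 in control and 6.96 in DSS, a difference of 1.27 from a control signal just above the median. Slc14a1, the urea carrier UT-B, read 6.90 and 5.51, a difference of -1.39. Slc10a6, a carrier of sulfated steroids, read 6.60 and 5.46, a difference of -1.15. The DSS signals of Slc14a1 and Slc10a6 were under the array's median, so their folds are not exact. Slc22a17, described as a receptor for the siderophore-binding protein lipocalin 2, read 6.70 and 6.01.

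Peptide carriers of this class lay on both sides. Slc15a2, the peptide carrier PEPT2 of the plasma membrane, read 7.01 in control and 5.93 in DSS, a difference of -1.08 that was -0.99 under loess centring. Slc15a3, an endolysosomal histidine and peptide carrier, read 10.31 and 10.98, a difference of 0.67, and Slc15a4, its relative in Toll-like receptor signalling, 7.54 and 7.32. The carnitine carrier gene Slc22a5 read 6.66 and 6.14, while its neighbour in the subfamily Slc22a4 read 5.81 and 6.22. Slc22a13 and Slc22a13b, near copies whose probes may cross-hybridise, had differences of -0.39 and -0.41. The dicarboxylate carrier gene Slc13a3 read 7.42 and 6.76, and the bile acid family members Slc10a7 and Slc10a1 had differences of 0.63 and 0.59. Slc10a1 met the signal rule on the DSS array only (5.19 in control), so its sign largely follows from the rule.

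Vitamin, choline and lipid carriers had 1 of 11 genes lower by 2-fold or more (against 3.01% of all genes) and 0 higher (against 3.93%). Their median was -0.20. Slc46a3, a lysosomal carrier of the folate carrier family, read 8.14 in control and 6.94 in DSS, a difference of -1.20 (2.29-fold lower). The choline carrier-like genes Slc44a2 and Slc44a1 had differences of opposite sign, with Slc44a2 at 6.68 and 7.57 and Slc44a1 at 9.99 and 9.66. The ascorbate carrier gene Slc23a2 read 8.63 and 8.17, the reduced folate carrier gene Slc19a1 7.27 and 7.07, and the fatty acid carrier gene Slc27a4 6.33 and 6.87. The differences of Slc19a1 had opposite signs in its 2 probe sets.

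**Figure D4:**
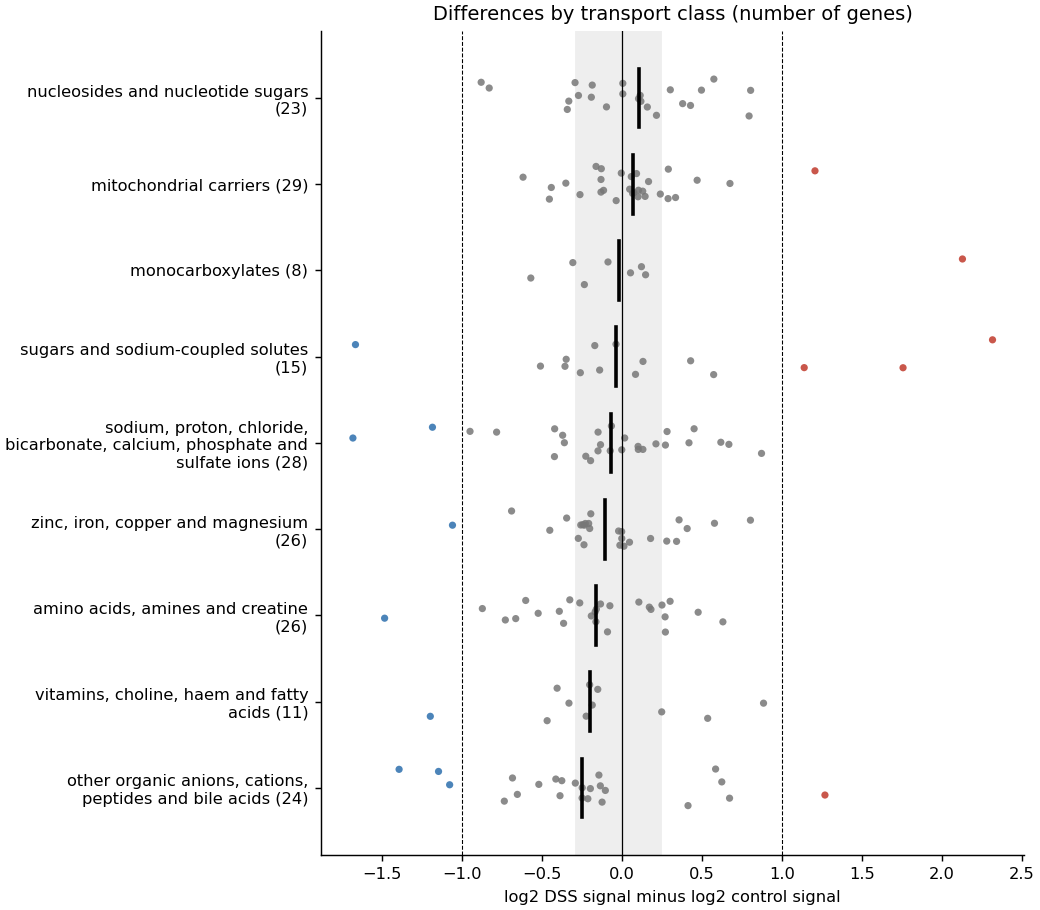
Differences (log2 DSS minus log2 control, x axis) of 190 Slc genes in 9 transport classes, with 1 point per gene and the number of genes in parentheses. Black bars are medians, dashed lines mark 2-fold, red and blue points lie past them, and the grey band spans the middle 50% of all 11314 genes. Class medians run from -0.25 to 0.10, and single genes such as Slc2a3 (2.32) and Slc9a9 (-1.68) lie far outside the band.

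At the edges of the 2-fold size, Slc2a6 (1.14) was the last gene inside and Slc44a2 (0.89) the first outside in the higher direction. In the lower direction these were Slc11a2 (-1.06) and Slc12a2 (-0.95). At the edge of the signal rule, Slc38a8 (5.66 in control) and Slc4a8 (5.66 in control) were just inside, and Slc36a2 (5.65 in control) and Slc16a1 (5.61 in DSS) just outside. All 15 members at least 2-fold apart had 1 probe set, so no second probe set checks them. Of the 12 members with several, 5 had probe sets that differed in sign.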

How the data were processed

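Expression was measured on 1 array for control and 1 for DSS macrophages. The deposited table holds log2 signals of 35556 probe sets; the submitters' processing notes name RMA without a version. Its settings, and which build was used, were not given in the sources used here. Values were used as deposited. A quantile step within RMA would take out a shift common to all genes. Genes were named from the platform annotation (21789 probe sets with 1 symbol, 1621 with several, which were not used), and all 364 Slc genes matched RefSeq (GRCm38.p6) by Entrez identifier. For genes with several probe sets, that of highest mean signal was taken. No test was run, since each group had 1 array, whose number limits the precision. Counts used a fixed size of 2-fold.

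Members, gene lists, classes and the promoter motif were chosen with earlier results of these data known. Named genes were taken by rule: members at 2-fold, the 4 furthest in each direction of a class, extremes of subfamilies, genes at the edges of the thresholds, those with the highest signals and the fixed lists. A few others (such as Slc2a5, Slc9a3, Slc15a4 and Slc29a3) were named after their values were seen. Not every gene the rule allows is printed. Alternatives covered scaling, probe set choice, signal rule, dim values raised to the 25th percentile, 1.5-fold and 3-fold, and the mean. On simulated data for this comparison, run on 11343 genes, 100 genes were raised and 100 lowered by a log2 value of 2. Of each, 100% were recovered at 2-fold. The imposed shift lay well past the size counted, so this recovery largely follows from the design. It shows that the steps ran, and gives no error rate for 2-fold differences between arrays without replicates. Software was Python 3.11.15 (numpy 2.4.6; statsmodels 0.14.6 for loess; pandas 2.3.3) and, for plots, matplotlib 3.10.9.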

Additional observations from a re-analysis of the deposited data

How the results depend on the processing

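The numbers of Slc genes at least 2-fold higher and lower, 6 and 9, became 18 and 22 at 1.5-fold (9.73% and 8.71% of all genes reached that size) and 3 and 2 at 3-fold (1.62% and 1.04% of all genes). Over the other settings the counts ran from 6 to 7 and from 6 to 9. The lower count was 6 when both arrays had to reach their medians, which removes Slc6a8, Slc14a1 and Slc10a6, and 8 under loess centring, where Slc15a2 passed to -0.99. The higher count was 7 with the dimmest probe set of each gene, where Slc38a1 joined at 1.34. The median difference of the members stayed between -0.12 and -0.03 over these settings, with a mean of -0.05 against a median of -0.10. Of 192 members, 172 kept their sign in the settings of scaling, probe set choice and floor, and the largest difference of a member whose sign turned was 0.27, that of Slc38a9. In 14 of the 15 members at 2-fold that size was kept in each of these 5 settings. For these 15, which have 1 probe set each, only median centring and loess centring could change a value. Probe set choice could change only the 12 members with several probe sets. The floor of 4.46 lay below the signals of all members, so it could change none. Array medians without the 6617 probe sets below the lowest listed identifier, chosen after seeing the data, gave 188 members with the same counts of 6 and 9. Without the 5 genes that encode no carrier, also chosen after seeing the data, the lower count was 8. No paired analysis was possible because each group has 1 array. The table holds no detection calls, so dim signals cannot be told from background.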

Other observations

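Below the signal rule lay 168 further Slc genes, with differences from -0.89 (Slc7a15) to 0.63 (Slc16a1) and 0 at 2-fold. Carriers typical of gut epithelium were among them: the intestinal glucose carrier gene Slc5a1 read 4.57 in control and 5.03 in DSS, the chloride exchanger gene Slc26a3 4.47 and 4.12, and Slc9a3 4.43 and 4.46. Of 15 epithelial markers, 10 passed the signal rule, and Epcam, Krt18, Krt20, Vil1 and Cdx2 were under the median of both arrays. Of the 10, 3 were at least 2-fold higher on the DSS array (against 3.93% of all genes): Reg3b (difference 4.28), Reg3g (2.41) and Fabp2 (1.399). Reg3b and Reg3g met the rule on the DSS array only. Krt8 read 7.97 in control and 8.05 in DSS, Car1 had a difference of 0.83, and 3 of the 10 lay below 0. The share of epithelial RNA on either array was not tested.

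The ATP-driven Abc transporters, the other large carrier superfamily, had 25 genes past the signal rule. Of these, 0 were higher and 1 was lower by 2-fold or more (against 3.93% and 3.01% of all genes). Their median difference was -0.14, against -0.10 for the Slc genes, and neither was compared by a test. Abca9, a lipid transporter family member, read 10.74 in control and 9.26 in DSS, a difference of -1.49. Abcc3 and Abcc1, exporters of organic anions and conjugates, had differences of -0.83 and -0.79. Abcb1a, the drug exporter P-glycoprotein, lay furthest the other way at 7.99 and 8.58.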
